A study of Mus musculus with 9 samples.

Results

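The comparison described here sets b.end3 cells that received the higher light dose of photodynamic treatment (Ep2, 20 J/cm2) against b.end3 cells that received the lower dose (Ep1, 10 J/cm2), with 3 RNA-seq libraries in each group. Its members are the genes with at least 1 FPKM (fragments relative to gene length and to all fragments of the library) in at least 3 of these 6 libraries, which are 11472 of the 54532 genes listed. b.end3 is a mouse brain endothelial line, labelled as brain microvessel endothelial cells of strain C57BL/6. Both groups were grown to a monolayer, kept for 90 min in 300 µg/mL porfimer sodium, a porphyrin photosensitizer, and then lit with a 635 nm laser at 100 mW/cm2. At that irradiance the doses take 100 and 200 s, so light dose and exposure time cannot be told apart. The untreated Ctrl libraries (3) received neither agent and serve only as a reference level, and no group with photosensitizer alone or light alone was analysed here. The time between light and lysis is not given in the sources used here, nor is it stated whether the libraries of a group came from separate cultures, so the p-values measure the spread between libraries, which may be technical.

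In photodynamic treatment, light excites the photosensitizer, which passes energy to oxygen and yields reactive oxygen species close to the membranes where the dye sits. Cells answer oxidative damage with transcription of early response factors, antioxidant enzymes and chaperones, and proliferating cells can slow the division cycle. That cycle is visible in RNA because genes of DNA replication are transcribed towards S phase under E2F factors and genes of mitosis towards G2 and M phase under the DREAM and MuvB complexes.

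The labelled cell type was not borne out by most of its defining markers. Of 16 endothelial markers only Flt1, Eng and Egfl7 reached the level for testing. Pecam1 lay between 0.104 and 0.242 FPKM, Kdr between 0.0239 and 0.0594, Cdh5 between 0.524 and 1.09, and Cldn5, Emcn, Erg, Sox17 and Robo4 were at 0 in all 6 libraries. Flt1, a receptor for VEGF, was present at 8, 6.81 and 6.93 FPKM in Ep1 and 11.7, 10.4 and 10.6 in Ep2 (log2 fold change 0.53, SE 0.0678, adjusted p = 0.000256). The keratins of simple epithelia were abundant, Krt8 at 606, 578 and 562 FPKM in Ep1 and 714, 649 and 619 in Ep2, and Krt19 at 181, 135 and 139 FPKM in Ep1 and 324, 270 and 255 in Ep2. All 4 epithelial markers tested, of 8 listed, were higher in Ep2 than in Ep1. Past the fold change threshold were Krt19 (log2 fold change 0.90, SE 0.119, adjusted p = 0.000437) and Epcam (log2 fold change 0.61, SE 0.109, adjusted p = 0.00163). Epcam fell short of that threshold without Ep1 replicate 3 or Ep2 replicate 1. The other listed markers did not reach the level for testing, and the epithelial cadherin Cdh1 was at most at 0.103 FPKM. Fibroblast markers were present in part, with 3 of 8 tested and Col3a1 at 34.9, 30.8 and 31 FPKM in Ep1 and 33.9, 38.5 and 41.2 in Ep2. Of 8 pericyte and smooth muscle markers Des alone was tested, at 2.91, 2.33 and 2.12 FPKM in Ep1 and 2.86, 3.6 and 3.35 in Ep2. Of 8 leukocyte markers, Cd68 alone was tested, and Ptprc, Itgam, Lyz2, C1qa and Cx3cr1 were at 0 to 0.012 FPKM. The part of these cells' identity in the dose differences was not tested.

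**Figure D1:**
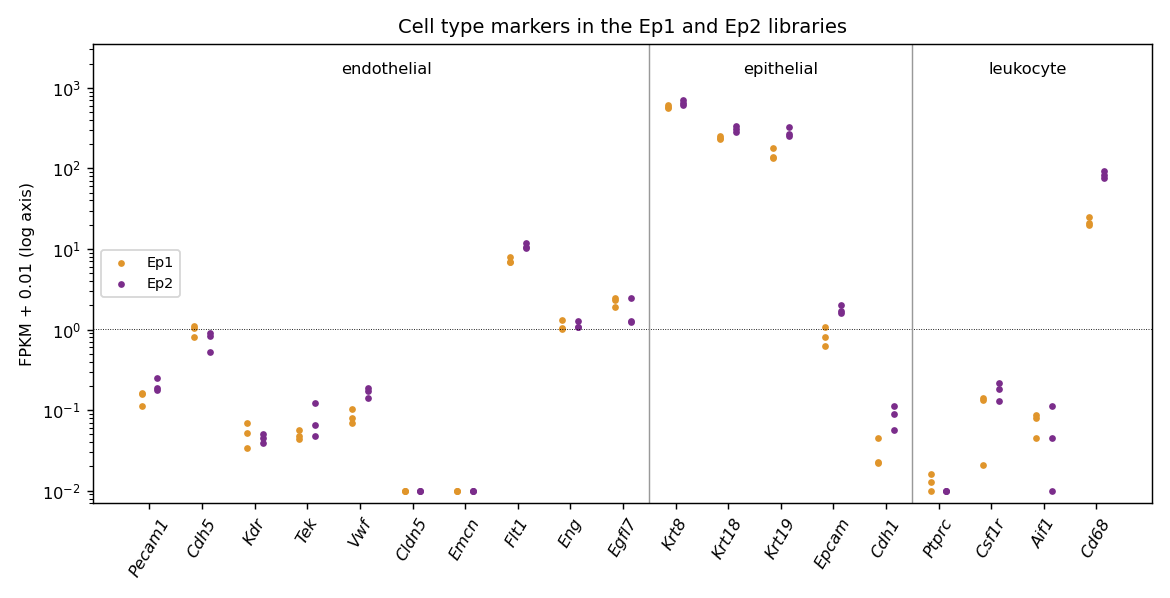
FPKM + 0.01 on a log axis for markers of 3 cell types, 1 point for each of the 3 Ep1 (orange) and 3 Ep2 (purple) libraries, with the dotted line at 1 FPKM. Most endothelial markers lie under 1 FPKM in all 6 libraries, Krt8 lies between 562 and 714 FPKM, and Cd68 is high while Ptprc, Csf1r and Aif1 are not.

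The 6 libraries held between 16240688 and 18603707 fragments on genes, recovered from the whole-fragment steps of the FPKM values. Mitochondrial transcripts took 1.997% to 2.082% of fragments in Ep1 and 2.035% to 2.49% in Ep2. In the principal component analysis of log2(FPKM + 1), the doses separated on the first component, with 61.8% of the variance (Ep1 from -19.2 to -14.2, Ep2 from 15.1 to 19.2), and the second (15%) spread the Ep2 libraries. Ep1 replicate 1 and Ep2 replicate 1 stood apart for some gene groups described here, and values without them are given beside several of these groups, not all.

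The higher dose was marked by lower RNA of the division cycle and of ribosome assembly, and by higher RNA of hypoxia targets, lysosomal genes and a set of single genes led by Cd68. Differentially expressed genes (DEGs) were defined by an adjusted p-value under 0.05 (limma, Benjamini-Hochberg) and an absolute log2 fold change over 0.6, with fold changes on the log2(FPKM + 1) scale, which understates the change of weakly expressed genes. Of the 11472 genes, 224 (1.95%) were DEGs higher in Ep2 and 461 (4.02%) were DEGs lower in Ep2. By the adjusted p-value alone, 2209 genes (19.3%) were higher and 2947 (25.7%) lower. All 3 Ep2 libraries lay above all 3 Ep1 libraries for 2804 genes (24.4%) and below them for 3515 (30.6%), and 680 of the 685 DEGs were among these. Most differences were small, since 93.3% of tested genes had an absolute log2 fold change under 0.6 and the median was -0.02. The excess of lower DEGs changed with scaling and with the model. The share of DEGs that were higher was 32.7%, but 47.3% (299 higher, 333 lower) when the medians of the libraries were set equal, 42.7% (273 and 367) when each library was adjusted for GC content and the length of genes, and 56.2% (864 and 672) with voom on the recovered fragments, which also changed the filter (13783 genes), the offset and the weights. FPKM is a share of the RNA sequenced, so a lower value does not show whether a cell held less of that RNA in absolute terms.

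**Figure D2:**
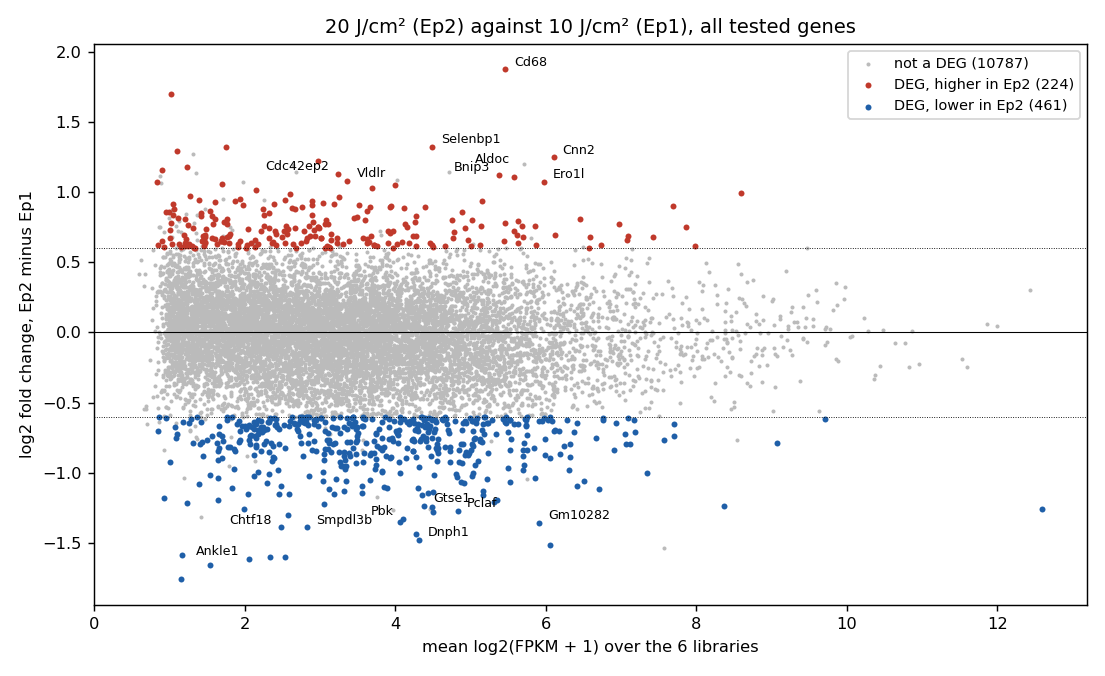
Log2 fold change of Ep2 over Ep1 against the mean log2(FPKM + 1) of the 6 libraries for all 11472 tested genes, with DEGs in red (224 higher) and blue (461 lower), dotted lines at 0.6 and -0.6, and names at the largest rises and falls among protein-coding DEGs in the upper 75% of expression. Cd68 stands highest among the named genes and Ankle1 lowest.

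Genes of the replication fork and of origin licensing fell together. Of 48 such genes tested, 32 were lower DEGs, 47 were lower by the adjusted p-value, none was higher by it, and the median log2 fold change was -0.71 against -0.02 over all tested genes. Pclaf, which binds the sliding clamp PCNA, was at 41.1, 45 and 44.3 FPKM in Ep1 and 17.5, 17.5 and 17.1 in Ep2 (log2 fold change -1.27, SE 0.0447, adjusted p = 1.88e-06), with no overlap between the groups and less than 0.5 FPKM between the Ep2 libraries. Gins1, a subunit of the replicative helicase complex, was at 29.9, 29.1 and 30 FPKM in Ep1 and 13.2, 12.7 and 12.4 in Ep2 (log2 fold change -1.16, SE 0.0473, adjusted p = 2.56e-06). Pold2, the accessory subunit of DNA polymerase delta, was at 60.4, 62.5 and 58.6 FPKM in Ep1 and 28.2, 25.8 and 24 in Ep2 (log2 fold change -1.19, SE 0.0581, adjusted p = 3.54e-06). The helicase subunits Mcm7 (-0.98) and Mcm5 (-0.94), the primase-polymerase subunit Pola1 (-1.10), the licensing factor Cdc6 (-1.11), the histone chaperone subunit Chaf1b (-1.06) and Uhrf1 (-0.98), which helps copy DNA methylation onto the new strand, were lower DEGs too. Rpa3, of the single-strand binding complex, was the exception at -0.08 (adjusted p = 0.485). In this bulk RNA, fewer cells in S phase and less of this RNA per cell cannot be told apart.

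Enzymes that supply deoxynucleotides showed the lowest median of all lists, -0.79, with 14 lower DEGs among 18 genes. Rrm2, the regulatory subunit of ribonucleotide reductase, was at 146, 155 and 155 FPKM in Ep1 and 63.2, 72.8 and 74 in Ep2 (log2 fold change -1.11, SE 0.0599, adjusted p = 3.74e-06). Thymidine kinase Tk1 was at 29.5, 35.3 and 33.4 FPKM in Ep1 and 13.7, 15 and 14.3 in Ep2 (log2 fold change -1.13, SE 0.0686, adjusted p = 5.63e-06). All Ep2 libraries of both genes lay below all Ep1 libraries. Thymidylate synthase Tyms (-1.12) fell as well, as did Rrm1 (-0.83), the catalytic subunit of the reductase, Umps (-0.92) of pyrimidine synthesis, Gart (-0.93) of purine synthesis and Dctpp1 (-1.04), which clears modified dCTP. Dnph1, which hydrolyses 5-hydroxymethyl-dUMP and was in no list, had one of the largest falls, from 28.6, 36.6 and 32.1 FPKM in Ep1 to 10.1, 12.2 and 10.6 in Ep2 (log2 fold change -1.48, SE 0.0877, adjusted p = 5.08e-06).

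Mitotic genes fell as well. Of 53 spindle and kinetochore genes, 38 were lower DEGs and 52 were lower by the adjusted p-value, with a median of -0.75. The mitotic kinase Plk1 was at 63.9, 66.5 and 66.8 FPKM in Ep1 and 34.4, 30.6 and 28.1 in Ep2 (log2 fold change -1.07, SE 0.0671, adjusted p = 6.51e-06). Cdc20, which activates the anaphase-promoting complex, was at 119, 139 and 133 FPKM in Ep1 and 64.1, 66.2 and 56.7 in Ep2 (log2 fold change -1.06, SE 0.0733, adjusted p = 1.01e-05). Aurkb, the kinase of the chromosomal passenger complex, ranged more widely in Ep2, at 41.3, 44 and 43.1 FPKM in Ep1 and 23.2, 20 and 16.8 in Ep2 (log2 fold change -1.07, SE 0.0973, adjusted p = 4.28e-05), still with no overlap between the groups. The centromere protein Cenpm (-1.15), the kinesins Kif2c (-1.05), Kif11 (-0.88) and Kif20a (-0.80), the centrosomal kinase Nek2 (-0.82), separase Espl1 (-0.99) and the checkpoint kinase Bub1b (-0.97) were lower DEGs, as were Gtse1 (-1.24) and the mitotic kinase Pbk (-1.33), which were in no list. Pttg1, the securin that holds separase inactive, was the single member past no threshold (-0.08, adjusted p = 0.243).

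Among 24 cyclins, cyclin-dependent kinases and their inhibitors, 5 were lower DEGs and the median was -0.40. Ccne1, the cyclin of S phase entry, was at 28.1, 27.3 and 28.6 FPKM in Ep1 and 9.72, 13.3 and 14.8 in Ep2 (log2 fold change -1.11, SE 0.118, adjusted p = 0.000123), with Ep2 replicate 1 lowest. Ccna2 (-1.0), Cdk1 (-0.72), Ccnb1 (-0.67) and Pkmyt1 (-0.79), the kinase that restrains Cdk1, were the others. Of the D-type cyclins of G1, chosen here after their values were seen, Ccnd3 was lower at -0.34 (adjusted p = 0.0034), while Ccnd1 at -0.10 (adjusted p = 0.172) and Ccnd2 at -0.13 (adjusted p = 0.0847) did not pass the adjusted p-value. The inhibitor Cdkn1a, also named after its value was seen, was at 79.5, 81.7 and 75.5 FPKM in Ep1 and 71.3, 52.2 and 54.6 in Ep2 (log2 fold change -0.42, SE 0.112, adjusted p = 0.0149), short of the fold change threshold and of the adjusted p-value without Ep1 replicate 2 or Ep2 replicate 3 (at most 0.0555), and Cdkn1b was at 0.19 (adjusted p = 0.204). Of 18 E2F, DREAM and MuvB factors, 3 were lower DEGs, Mybl2 (-1.03), E2f7 (-0.71) and E2f8 (-0.61), and Foxm1, an activator of G2 and M phase genes, was at -0.58 (adjusted p = 5.16e-05). Condensin and cohesin genes had 9 lower DEGs of 20 (median -0.52), among them the cohesin protector Cdca5 (-0.99), the condensin subunits Ncaph (-0.84) and Smc2 (-0.71), and Top2a (-0.86), the topoisomerase that untangles sister chromatids.

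The list of homologous recombination and the Fanconi pathway, mostly repair genes and many of them transcribed in S phase, included 13 lower DEGs of 34 (median -0.46). In it 2 members, Mus81 (0.31) and Slx4 (0.20), were higher by the adjusted p-value. Ankle1, an endonuclease that cuts bridges of unresolved DNA, had the largest fall of the well expressed protein-coding genes, at 9.02, 9.63 and 9.03 FPKM in Ctrl, 5.97, 6.41 and 6.44 in Ep1 and 1.52, 1.17 and 1.46 in Ep2 (log2 fold change -1.61, SE 0.0672, adjusted p = 2.56e-06). Its levels in the Ep1 libraries lay under those of Ctrl and its levels in Ep2 under those of Ep1. Fanca (-0.79), Rad54l (-1.03) and Fancd2 (-0.85) were lower DEGs. So was Fbxo5 (-0.75), a regulator of the cell cycle in the same list rather than a repair gene. Chtf18, which loads the clamp for sister cohesion and was in no list, was at 7.01, 8.77 and 8.5 FPKM in Ep1 and 2.36, 2.82 and 2.22 in Ep2 (log2 fold change -1.39, SE 0.107, adjusted p = 1.72e-05).

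Histone genes showed no clear common direction. Of 18 histone genes and histone factors tested, 6 were lower and 2 higher by the adjusted p-value, beside 25.7% and 19.3% of all tested genes. The 2 higher genes were DEGs, Hist1h1c (0.64) and Hist1h2bj (0.74), while the variant H2afz was the lower DEG (-0.74). Hist1h1c fell short of the fold change threshold without Ep2 replicate 1, at 0.47. The call of Hist1h2bj was lost without Ep1 replicate 1, Ep1 replicate 2, Ep2 replicate 1 or Ep2 replicate 2 (adjusted p at most 0.0676). H2afz kept its call in all 18 alternative fits. Most replicative histone transcripts lack a poly(A) tail, and reads of histone genes can be shared with near-identical copies, so these values are uncertain.

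**Figure D3:**
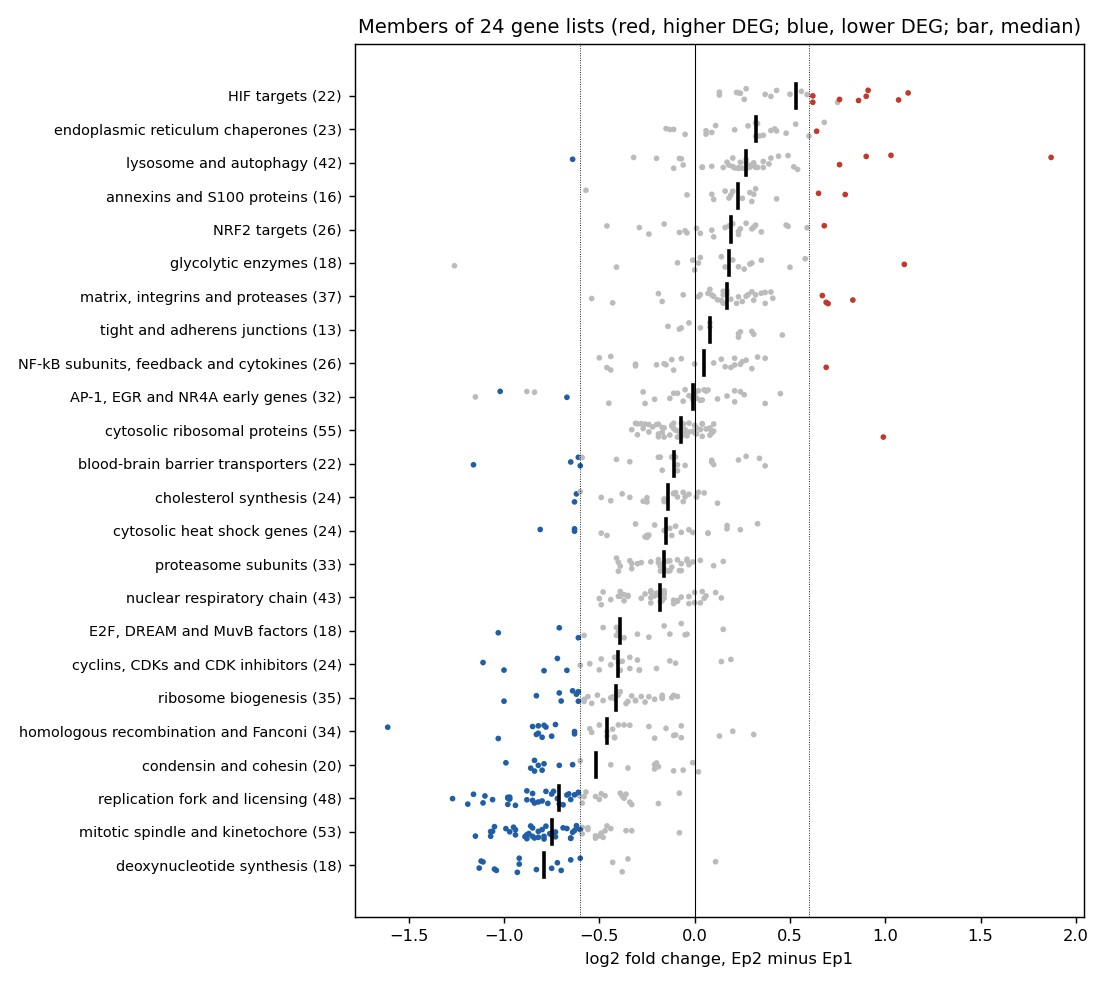
Log2 fold change of Ep2 over Ep1 for each tested member of a part of the gene lists described here (number tested in brackets), with lower DEGs in blue, higher DEGs in red, other members in grey and a bar at each median. The lists of deoxynucleotide synthesis, the spindle and the replication fork have medians of -0.79, -0.75 and -0.71, and HIF targets have the highest median, 0.53.

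The median log2 fold change of the replication list was 0.01 for Ep1 against Ctrl and -0.74 for Ep2 against Ctrl, and that of the mitotic list 0.02 and -0.70, in 2 comparisons that share the Ctrl libraries. The median member of the replication list was at -0.05, 0.04 and 0.02 in the Ep1 libraries and at -0.72, -0.74 and -0.75 in the Ep2 libraries relative to the Ctrl mean on the log2 scale. No Ep1 library came near the Ep2 range, and the Ep2 libraries differed by 0.03.

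Ribosome biogenesis was lower in Ep2, with 30 of 35 genes lower by the adjusted p-value, 8 lower DEGs and a median of -0.41, but 4 lower DEGs with equal medians and 5 without Ep2 replicate 1. Nhp2, a protein of the H/ACA particles that modify ribosomal RNA, was at 210, 245 and 231 FPKM in Ep1 and 112, 122 and 108 in Ep2 (log2 fold change -1.0, SE 0.0622, adjusted p = 6.19e-06). Bop1 (-0.83), of the complex that matures the large subunit, nucleolin Ncl (-0.71), Nop16 (-0.62) and Rrp9 (-0.70) were lower DEGs, and fibrillarin Fbl was at -0.56 (adjusted p = 1.72e-05). Smaller falls ran through other abundant machinery. Of 43 nuclear-encoded respiratory chain genes, 25 were lower and none higher by the adjusted p-value (median -0.18), 17 and 2 with equal medians, with Cyc1 of complex III at -0.50. Of 33 proteasome subunits 19 were lower and 1 higher (median -0.16), 15 and 2 with equal medians, with Psmb3 at -0.41, and neither list held a DEG. Of 55 cytosolic ribosomal proteins, 15 were lower and 1 higher (median -0.07), and the split was 6 to 6 with equal medians, so no direction is given for them. The spliceosome protein Snrpf, in no list, was at 57.1, 60.9 and 60.8 FPKM in Ep1 and 35.8, 24.4 and 18.2 in Ep2 (log2 fold change -1.21, SE 0.2, adjusted p = 0.00202), with all Ep2 libraries below Ep1 but far apart from each other.

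Cytosolic heat shock genes that moved were mostly lower at the higher dose. Of 24, 13 were lower and 2 higher by the adjusted p-value, and 3 were lower DEGs, the HSP90 partners Fkbp4 (-0.81) and Ahsa1 (-0.63) and the mitochondrial co-chaperonin Hspe1 (-0.63). Fkbp4 was at 97.2, 104 and 97.2 FPKM in Ep1 and 58.3, 58.5 and 52 in Ep2 (adjusted p = 9.57e-06). Fkbp4 remained the single lower DEG of this list with equal medians and after the length and GC correction. Cholesterol synthesis had 9 of 24 genes lower by the adjusted p-value and 2 lower DEGs, Pmvk (-0.63) and Mvk (-0.62), neither of which passed the fold change threshold with equal medians. The median of this list was -0.14, -0.06 without Ep1 replicate 1 (6 lower) and -0.05 without Ep2 replicate 1, and Ep1 replicate 1 was highest of the 6 libraries for 19 of the 24 genes.

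Among genes that rose, targets of HIF, the transcription factor of hypoxia, had the highest median of all lists, 0.53. Of 22 tested, 8 were higher DEGs, 16 were higher and none lower by the adjusted p-value, and the median was 0.38 with 6 DEGs without Ep2 replicate 1. Bnip3, a receptor for mitophagy, was at 22.3, 24.6 and 27.1 FPKM in Ctrl, 34.6, 23.7 and 24.4 in Ep1 and 79.5, 52.4 and 52.7 in Ep2 (log2 fold change 1.12, SE 0.197, adjusted p = 0.00265). Ero1l, the oxidase that drives disulfide formation in the endoplasmic reticulum, was at 52.1, 36.9 and 39.7 FPKM in Ep1 and 109, 81.7 and 82.9 in Ep2 (log2 fold change 1.07, SE 0.154, adjusted p = 0.000846). Replicate 1 was the highest library within both groups for each of these genes, and the groups did not overlap. Car9, a carbonic anhydrase of the cell surface, was lower in level and even across Ep2, at 2.3, 1.63 and 1.73 FPKM in Ep1 and 4.24, 4.18 and 4.76 in Ep2 (log2 fold change 0.91, SE 0.0962, adjusted p = 8.99e-05). The collagen prolyl hydroxylases P4ha2 (0.90) and P4ha1 (0.76) and Ndrg1 (0.86) were DEGs as well, and the mitophagy receptor Bnip3l was at 0.59 (adjusted p = 4.7e-05). Vegfa was at 54.2, 42.3 and 42.5 FPKM in Ep1 and 96.4, 59.9 and 63.2 in Ep2 (log2 fold change 0.62, SE 0.176, adjusted p = 0.0215), and 0.41 without Ep2 replicate 1. The call of Vegfa was lost without Ep1 replicate 2, Ep1 replicate 3 or Ep2 replicate 1, and that of the prolyl hydroxylase Egln3 (0.62, adjusted p = 0.043) in 10 of the 18 alternative fits. Ep2 replicate 1 held the highest value of the 6 libraries for 17 of the 22 targets.

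Glycolytic enzymes showed a smaller shift of the same sign, with 9 of 18 higher and 1 lower by the adjusted p-value and a median of 0.18, which was 0.08 without Ep2 replicate 1. Aldoc, an aldolase isoform, was the DEG, at 38, 28.4 and 29.2 FPKM in Ep1 and 72.9, 69.7 and 64.9 in Ep2 (log2 fold change 1.10, SE 0.104, adjusted p = 5.73e-05). Eno2, an enolase (0.58), and the phosphofructokinase Pfkp (0.50) were higher short of the fold change threshold. Pgk1, an abundant enzyme of the payoff phase, was at 0.30 (adjusted p = 0.00447), and the glucose carrier Slc2a1 at 0.37 (adjusted p = 0.0421, over 0.05 in 8 of 18 alternative fits and at most 0.124). Gapdh, named after its values were seen, was at 38.9, 17 and 54.3 FPKM in Ep1 and 8.89, 5.51 and 44.4 in Ep2 (log2 fold change -1.26, SE 0.787, adjusted p = 0.232). Its libraries overlapped between the doses, and its reads can be shared with many processed pseudogenes.

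Lysosomal and autophagy genes rose broadly but by small amounts. Of 42 tested, 32 were higher and 3 lower by the adjusted p-value, with a median of 0.27 and 4 higher DEGs. Cd68, a glycoprotein of lysosomal membranes used as a macrophage marker, had the largest rise of all tested genes on the log2(FPKM + 1) scale. It was at 23.1, 23.4 and 24.9 FPKM in Ctrl, 25.2, 21.1 and 20.1 in Ep1 and 91.9, 76.6 and 82.4 in Ep2 (log2 fold change 1.87, SE 0.0879, adjusted p = 3.54e-06), a ratio of group means of 3.78, with the other leukocyte markers at or near 0 as given above. The sialidase Neu1 was at 9.78, 7.09 and 7.52 FPKM in Ep1 and 18.8, 17.5 and 16.3 in Ep2 (log2 fold change 1.03, SE 0.103, adjusted p = 6.6e-05), with no overlap between the groups. Atp6v0d1, of the proton pump that acidifies lysosomes, was a DEG (0.76), and the protease Ctsd was at 0.52 (adjusted p = 0.000105). The glucuronidase Gusb went the other way, at 16.3, 17.4 and 16.4 FPKM in Ep1 and 10, 10.3 and 10.7 in Ep2 (log2 fold change -0.64, SE 0.0456, adjusted p = 1.11e-05), and Tfeb, a transcription factor of lysosomal genes, was lower by 0.32 on the log2 scale (adjusted p = 0.00264). The fold change of Gusb was -0.59, just short of the threshold, with equal medians. The count of higher members by the adjusted p-value ranged from 28 to 33 over the alternative fits.

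Endoplasmic reticulum chaperones were higher by a median of 0.32, and by 0.15 without Ep2 replicate 1. Hspa5 (BiP), the main chaperone of the compartment, was at 347, 329 and 325 FPKM in Ep1 and 648, 375 and 366 in Ep2 (log2 fold change 0.42, SE 0.199, adjusted p = 0.124), and Creld2 at 43.6, 42.7 and 42.9 FPKM in Ep1 and 134, 52.5 and 47.2 in Ep2 (log2 fold change 0.68, SE 0.345, adjusted p = 0.149). Ep2 replicate 1 was far above the other Ep2 libraries in both genes. By the adjusted p-value 8 of 23 genes were higher and none lower, against 13 higher and 1 lower without that library. The median member was at 0.66, 0.28 and 0.26 in the Ep2 libraries relative to Ctrl on the log2 scale. Sel1l, of the pathway that clears misfolded proteins, was the DEG of the list (log2 fold change 0.64, SE 0.077, adjusted p = 0.000182) but at 0.55 without Ep2 replicate 1, when the list held 0 DEGs, against 4 without Ep2 replicate 3, and the disulfide isomerase P4hb was at 0.60 (adjusted p = 0.000137). Kdelr3, a receptor that returns resident proteins to the compartment and was in no list, was at 9.83, 9.42 and 11.2 FPKM in Ep1 and 28.9, 19.7 and 18.9 in Ep2 (log2 fold change 1.05, SE 0.141, adjusted p = 0.000458). It overlaps Ddx17 on the other strand, itself a higher DEG, and the strand used in counting is not given in the sources used here. The same limit holds for other named genes that overlap a gene of the other strand, among them G6pdx, whose partner Ikbkg was a higher DEG, and Mcm7, Cdc20, Nhp2, Hspe1, Pclaf, Ccna2, Tk1, Rad54l and Rrp9, whose partners were not DEGs.

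**Figure D4:**
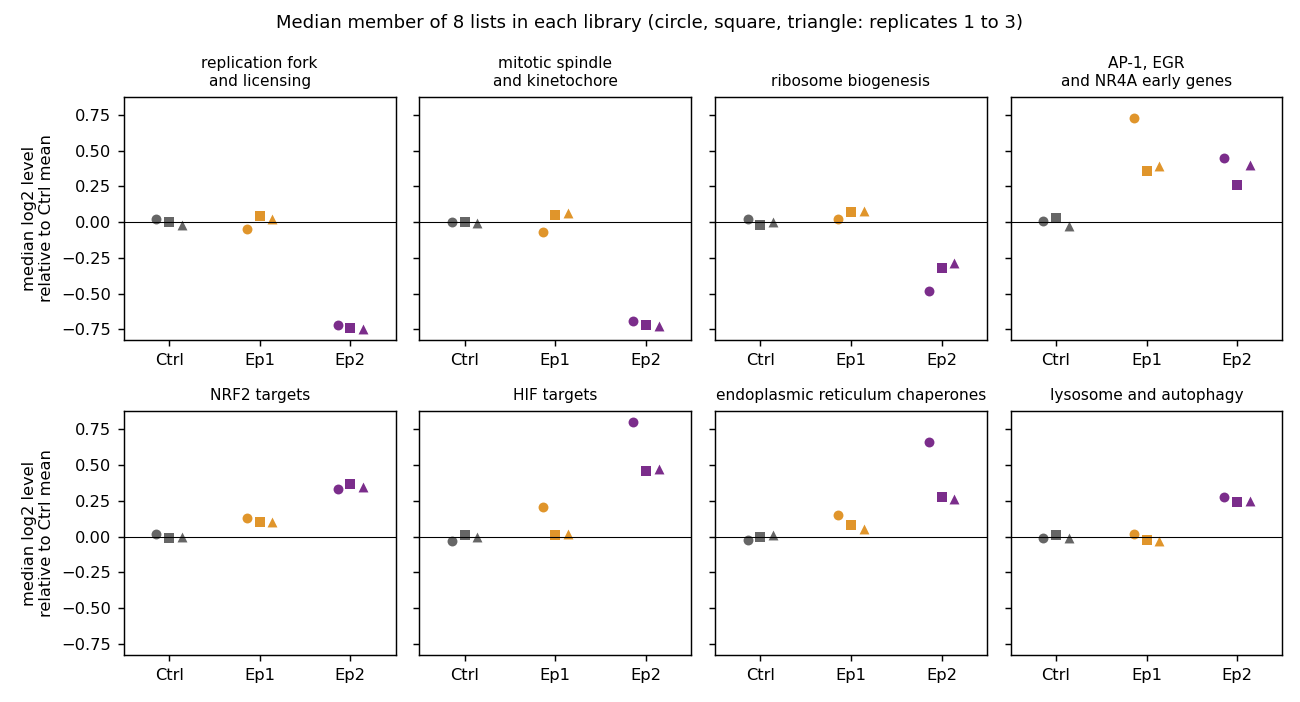
Each library's median over members of log2(FPKM + 1) minus the gene's mean over Ctrl, for 8 gene lists, with Ctrl in grey, Ep1 in orange and Ep2 in purple and circles, squares and triangles for replicates 1 to 3. Replication, mitosis and lysosome lists are tight within each group, while Ep2 replicate 1 stands above the other Ep2 libraries for HIF targets (0.80) and chaperones (0.66), and Ep1 replicate 1 above the other Ep1 libraries for early genes (0.73).

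Early response genes, which encode AP-1, EGR and NR4A factors induced within minutes to hours of stress, moved in both directions between the doses. Of 32 tested, 4 were higher and 4 lower by the adjusted p-value, smaller shares than the 19.3% and 25.7% over all tested genes. The median of -0.01 changed sign with scaling (0.05 with equal medians). Jun was at 17.1, 19 and 17.4 FPKM in Ctrl, 48.1, 24.8 and 26.6 in Ep1 and 13.6, 13.8 and 18.6 in Ep2 (log2 fold change -1.02, SE 0.24, adjusted p = 0.0105), and Egr1 at 3.83, 5.03 and 4.25 FPKM in Ctrl, 11.3, 7.13 and 8.72 in Ep1 and 5.8, 4.43 and 5.61 in Ep2 (log2 fold change -0.67, SE 0.156, adjusted p = 0.0079). Both were lower DEGs, with Ep1 above both of the other groups. Egr1 fell short of the fold change threshold without Ep1 replicate 1 (-0.51) or Ep2 replicate 2 (-0.56) and with the length and GC correction. Without Ep1 replicate 1 the list had 5 higher and 4 lower genes, 1 lower DEG and a median of 0.10, and Jun was at -0.72, Fos at -0.61 and Atf3 at -0.27. Fos, at 16.1, 4.66 and 4.51 FPKM in Ep1 and 2.54, 1.7 and 4.1 in Ep2 (log2 fold change -1.15, SE 0.44, adjusted p = 0.067), and Atf3, at 1.88, 2.21 and 1.73 FPKM in Ctrl, 33.8, 8.36 and 11.2 in Ep1 and 5.38, 6.3 and 13.9 in Ep2 (log2 fold change -0.84, SE 0.508, adjusted p = 0.219), did not pass the adjusted p-value, and in both Ep1 replicate 1 stood far above the other libraries. Klf10, a factor induced by TGF-beta, was higher without overlap, at 19.1, 18 and 19.2 FPKM in Ep1 and 25.5, 26.8 and 25.8 in Ep2 (log2 fold change 0.45, SE 0.0425, adjusted p = 4.73e-05), short of the fold change threshold. The genes of NF-kB subunits, feedback and cytokines were divided as well, with 9 higher and 7 lower by the adjusted p-value of 26. The split was 12 and 3 without Ep1 replicate 1, 4 and 4 without Ep1 replicate 2, 5 and 5 without Ep1 replicate 3, 6 and 5 without Ep2 replicate 2 and 8 and 4 without Ep2 replicate 3. The chemokine Ccl7 was a higher DEG (0.69) but at 0.58 without Ep2 replicate 3, and the subunit Nfkb2 was lower by 0.50 (adjusted p = 2.25e-05).

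Targets of NRF2, the factor that induces antioxidant enzymes, were higher by a median of 0.19. Of 26, 12 were higher and 4 lower by the adjusted p-value. Srxn1, which repairs oxidised peroxiredoxins, was the DEG, at 57.1, 56.3 and 59.4 FPKM in Ctrl, 81.7, 72.1 and 72.4 in Ep1 and 145, 114 and 108 in Ep2 (log2 fold change 0.68, SE 0.1, adjusted p = 0.000647), and its fold change was 0.55 without Ep2 replicate 1. Slc7a11, the cystine carrier that feeds glutathione synthesis, was at 5.42, 5.08 and 5.76 FPKM in Ctrl, 12.6, 10.4 and 11.5 in Ep1 and 16, 15.9 and 17.2 in Ep2 (log2 fold change 0.48, SE 0.0696, adjusted p = 0.000518). Both genes stepped up from Ctrl to Ep1 and from Ep1 to Ep2 with no overlap between any groups. The rate-limiting enzyme of glutathione synthesis, Gclc, was at 0.31, and the quinone reductase Nqo1 at -0.24 (adjusted p = 0.000489 and 0.000797). The malic enzyme Me1 was at 0.59 (adjusted p = 0.000138), and G6pdx, the entry enzyme of the pentose phosphate pathway, went the other way (-0.46, adjusted p = 0.00014). Msrb3, which reduces oxidised methionine and was in no list, was at 3.56, 2.96 and 3.51 FPKM in Ep1 and 6.57, 7.63 and 8.64 in Ep2 (log2 fold change 0.98, SE 0.107, adjusted p = 0.000103).

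Selenbp1, a selenium-binding protein with methanethiol oxidase activity, was at 13.2, 12.5 and 13.3 FPKM in Ctrl, 20.2, 10 and 11.4 in Ep1 and 38.7, 34.1 and 31.4 in Ep2 (log2 fold change 1.32, SE 0.221, adjusted p = 0.00217), with Ep1 replicate 1 apart from its group but under every Ep2 library. Alas1, the first enzyme of heme synthesis, the pathway that makes porphyrins in the cell, was at 9.69, 9.7 and 10.2 FPKM in Ctrl, 3.15, 2.99 and 3.17 in Ep1 and 7.21, 4.85 and 5.45 in Ep2 (log2 fold change 0.72, SE 0.105, adjusted p = 0.000513). Its level was lowest in Ep1 and between Ep1 and Ctrl in Ep2, and its fold change was 0.58 without Ep2 replicate 1. Of 19 genes of heme synthesis and iron, 7 were lower and 2, Alas1 included, higher by the adjusted p-value, 7 and 6 without Ep2 replicate 1 and 6 and 5 with equal medians. Among the lower genes was the transferrin receptor Tfrc (-0.59).

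Transporters of the blood-brain barrier, a subject of the study, included 4 lower DEGs and no higher DEG of 22. Slc29a1, the equilibrative nucleoside carrier, was at 50.8, 54.6 and 53 FPKM in Ep1 and 19.8, 25.3 and 24.4 in Ep2 (log2 fold change -1.16, SE 0.0797, adjusted p = 9.57e-06). The drug efflux pump Abcb1b (-0.65), the amino acid carrier Slc7a5 (-0.61) and the lipid carrier Mfsd2a (-0.60) were close to the threshold, and all 3 fell short of it with equal medians. Matrix, integrin and protease genes had 20 of 37 higher and 2 lower by the adjusted p-value (median 0.17). F2rl1, a receptor cleaved by proteases, was at 14.9, 13.7 and 12.1 FPKM in Ep1 and 28.7, 22.7 and 23.1 in Ep2 (log2 fold change 0.83, SE 0.1, adjusted p = 0.000187), and Mmp10 (0.70), Ace (0.69) and thrombomodulin Thbd (0.67) were DEGs. Without Ep1 replicate 2 the list held 2 DEGs, with Mmp10 at 0.58 and Thbd at 0.59, and Thbd was at 0.54 without Ep2 replicate 1. Annexins and S100 proteins, which bind calcium and membranes, had 10 of 16 higher and 1 lower, with Anxa6 at 40, 34.6 and 35.6 FPKM in Ep1 and 60.4, 66.3 and 66.2 in Ep2 (log2 fold change 0.79, SE 0.0653, adjusted p = 2.28e-05) and Anxa3 (0.65) as DEGs. Of 18 genes measured by qPCR in the study and tested here, 6 were higher and 2 lower by the adjusted p-value between the doses. F2rl1 and Ace were the DEGs, Areg was at 0.32 (adjusted p = 0.0147), and Atf3, Nr4a1, Nr4a2, Fosb and Irs2 did not pass the adjusted p-value. The study describes its qPCR for the 20 J/cm2 dose, with the transporters set against cells without intervention, so it does not compare the doses. The median of these genes was -0.06 between the doses, 0.17 for Ep1 against Ctrl and 0.53 for Ep2 against Ctrl. The study picked the pathway genes among them from its own DEGs. Their level in Ep2 against Ctrl is therefore not independent of that choice. Tight and adherens junction genes had no DEG among 13 tested, 6 higher and 1 lower by the adjusted p-value.

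Of the remaining large rises, Cnn2, an actin-binding calponin, was at 48.2, 42.4 and 40.6 FPKM in Ep1 and 110, 108 and 97.2 in Ep2 (log2 fold change 1.25, SE 0.0677, adjusted p = 3.74e-06). Cdc42ep2, an effector of the small GTPase Cdc42, was at 8.45, 9.81 and 8.02 FPKM in Ctrl, 4.9, 5.4 and 5.85 in Ep1 and 16, 11.7 and 11.6 in Ep2 (log2 fold change 1.13, SE 0.123, adjusted p = 0.000124), low in Ep1 and high in Ep2 relative to Ctrl. Vldlr, a lipoprotein receptor, was at 6.89, 5.45 and 5.99 FPKM in Ep1 and 15.4, 12.8 and 13.8 in Ep2 (log2 fold change 1.08, SE 0.0829, adjusted p = 1.68e-05). None of these 3 genes overlapped between the doses. Cep295nl was at 2.06, 2.12 and 2.22 FPKM in Ep1 and 7.56, 4.87 and 4.06 in Ep2 (log2 fold change 1.02, SE 0.162, adjusted p = 0.00101), but it lies inside Timp2 on the same strand, which averaged 122.64 FPKM, and its reads may be shared. Among large falls, Smpdl3b, a phosphodiesterase of the membrane, was at 10.1, 11.2 and 10.2 FPKM in Ep1 and 2.43, 3.68 and 4.23 in Ep2 (log2 fold change -1.39, SE 0.133, adjusted p = 6.52e-05), and the predicted gene Gm10282 at 94.8, 108 and 84.1 FPKM in Ep1 and 43.8, 28.3 and 39.2 in Ep2 (log2 fold change -1.36, SE 0.161, adjusted p = 0.00034).

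**Figure D5:**
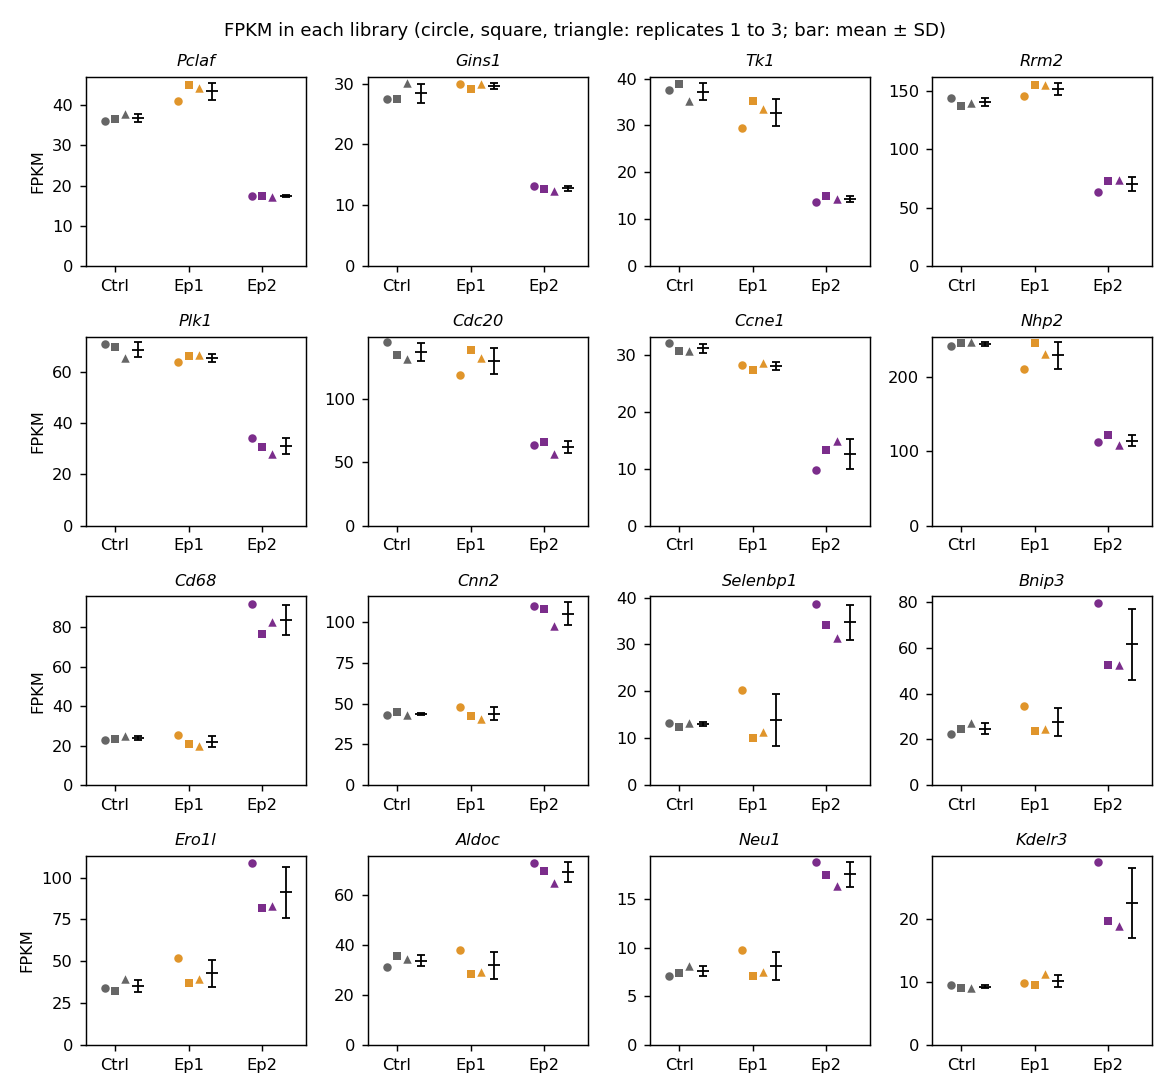
FPKM in each library for 8 genes lower in Ep2 (upper rows) and 8 genes higher in Ep2 (lower rows), with linear axes from 0, circles, squares and triangles for replicates 1 to 3 and a bar for the mean and SD of 3 libraries. For each upper gene the 3 Ep2 libraries lie below the Ep1 and Ctrl libraries, and Bnip3, Ero1l and Kdelr3 show Ep2 replicate 1 above the other Ep2 libraries.

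Of 368 long non-coding RNAs, 26 were higher and 2 lower DEGs, with a median of 0.18 against -0.02 for protein-coding genes (171 higher, 409 lower of 10061). The filter also admits genes that reach 1 FPKM at a single dose. Of all tested genes, 100 were below 1 FPKM in all Ep1 libraries and 44 in all Ep2 libraries, with 22 and 9 DEGs. At or above 1 FPKM in all 6 libraries were 178 of 224 higher and 436 of 461 lower DEGs. The part of the filter in the counts of non-coding RNAs was not tested. Malat1, a nuclear RNA of speckles, was at 30.8, 33.5 and 31.2 FPKM in Ctrl, 23.3, 24.8 and 23.7 in Ep1 and 41.9, 37.9 and 35.3 in Ep2 (log2 fold change 0.66, SE 0.0631, adjusted p = 5.16e-05), and 0.59 without Ep2 replicate 1. Neat1, the scaffold of paraspeckles, was at 3.31, 3.51 and 3.56 FPKM in Ep1 and 9.24, 5.68 and 4.29 in Ep2 (log2 fold change 0.68, SE 0.202, adjusted p = 0.0256) and lost its call without any single Ep1 library. Of 2295 genes with the lowest mean level 67 were higher and 41 lower DEGs, and of the 2295 genes with the highest 39 and 129. Among the most changed genes of other classes, the microRNA gene Mir3091 was at 3.56, 4.71 and 4.25 FPKM in Ep1 and 0.69, 0 and 1.58 in Ep2 and the small nucleolar RNA Snord110 at 1.59, 4.38 and 3.96 FPKM in Ep1 and 0, 0.786 and 0 in Ep2. They lie within the host genes Rps21 and Nop56, and their counts in Ep2 were 0 to 2 and 0 to 1 fragments, so no fold is given. The pseudogene Gm14186 was at 0, 0.435 and 0 FPKM in Ep1 and 1.91, 2.73 and 3.52 in Ep2, with 0 to 1 fragments in Ep1 and 5 to 8 in Ep2, so no fold is given either. It and the pseudogene Gm6091 (-1.60) may share reads with related copies. Gm23935, the row with the highest FPKM, was at 6418, 15811 and 8626 FPKM in Ep1 and 4015, 5826 and 2748 in Ep2 (log2 fold change -1.26, SE 0.365, adjusted p = 0.0253). It lies within Zc3h7a, its Ep1 libraries spread widely, and its call was lost without any of 4 single libraries. The next most abundant genes moved little, mt-Co1 by 0.30 (adjusted p = 0.0045) and Eef1a1 by 0.05 (adjusted p = 0.28).

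Promoter windows of 250 bases before to 50 after the start of transcription (RefSeq, GRCm38.p6) were matched to 8252 of the tested genes and searched on both strands. The CHR element TTTGAA, through which the MuvB complexes act, was present in 83 of 328 windows of lower DEGs (25.3%), in 13 of 142 of higher DEGs (9.15%) and in 11.5% of all tested genes. It was present in 31 of 46 windows of the mitotic list (67.4%) and 7 of 39 of the replication list (17.9%). The E2F motif, searched as TTTGGCGC or TTTCCCGC, had the reverse order, 13 of 39 windows of the replication list (33.3%) and 2 of 46 of the mitotic list (4.35%), against 3.42% of all tested genes. It was in 27 of 328 windows of lower DEGs (8.23%), 4 of 142 of higher DEGs (2.82%) and 3 of 31 of the ribosome biogenesis list (9.68%). The deoxynucleotide list, with the lowest median, did not share this split, with E2F in 0 of 17 windows and CHR in 2 of 17 (11.8%). CCAAT was found in 51.5% of lower DEGs and 39.3% of tested genes. For higher DEGs, the AP-1 motif TGANTCA was in 16 of 142 windows (11.3%) against 4.68% of tested genes, and the antioxidant motif TGACNNNGC, which can overlap it, in 16.2% against 15%. The HIF core, ACGTG or GCGTG, was in 64.8% of higher DEGs and 66.3% of tested genes, and in 15 of 17 windows of HIF targets (88.2%). The cyclic AMP element TGACGTCA was in 0 of 142 windows of higher DEGs and 3.37% of tested genes. These shares are descriptions of letters in windows, with no test, and do not show binding.

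To show where these letters lie, 100 bases upstream of the start are given for the lower DEGs of the replication list (Cdc6, Pola1) and of the mitotic list (Cdc20, Kif2c) with the largest falls among those with an E2F or CHR match upstream, written 5′ to 3′ on the strand of the gene with the match in capitals.
Cdc6 (chr11:98908013-98908112, + strand, GRCm38.p6): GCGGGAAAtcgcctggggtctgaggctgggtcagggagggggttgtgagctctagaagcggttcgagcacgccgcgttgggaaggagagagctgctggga
Pola1 (chrX:93632194-93632293, - strand, GRCm38.p6): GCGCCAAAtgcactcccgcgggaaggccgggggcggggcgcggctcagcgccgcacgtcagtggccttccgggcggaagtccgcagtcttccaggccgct
Cdc20 (chr4:118437344-118437443, - strand, GRCm38.p6): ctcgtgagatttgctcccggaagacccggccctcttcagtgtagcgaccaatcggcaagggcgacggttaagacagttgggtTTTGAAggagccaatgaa
Kif2c (chr4:117178776-117178875, - strand, GRCm38.p6): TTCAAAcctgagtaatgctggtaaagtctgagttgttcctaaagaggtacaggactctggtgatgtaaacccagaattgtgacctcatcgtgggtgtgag
Counted from the start of transcription, the CHR match begins close to it in Cdc20, while in Kif2c and in both E2F promoters the match opens the stretch shown and reads on the opposite strand. For the genes with the largest rises, the capitals mark AP-1 in Cd68 and the HIF core in the other sequences, a core that about as many tested genes hold.
Cd68 (chr11:69666171-69666270, - strand, GRCm38.p6): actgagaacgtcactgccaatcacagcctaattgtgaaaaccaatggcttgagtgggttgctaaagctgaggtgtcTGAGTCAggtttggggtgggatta
Selenbp1 (chr3:94932879-94932978, + strand, GRCm38.p6): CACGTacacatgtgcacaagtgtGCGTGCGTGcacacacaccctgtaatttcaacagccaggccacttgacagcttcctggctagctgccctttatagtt
Cnn2 (chr10:79988500-79988599, + strand, GRCm38.p6): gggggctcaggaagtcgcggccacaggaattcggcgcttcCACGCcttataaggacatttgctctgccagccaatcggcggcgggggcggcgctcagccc
Cdc42ep2 (chr19:5924817-5924916, - strand, GRCm38.p6): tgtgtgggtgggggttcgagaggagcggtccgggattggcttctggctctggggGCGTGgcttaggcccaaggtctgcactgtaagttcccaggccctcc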

How the data were processed

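RNA was sequenced from 3 Ctrl, 3 Ep1 and 3 Ep2 libraries, grouped by their titles. The authors deposited FPKM values per gene. The submitters' processing notes name Bowtie 0.12.2 and mm8, the study's methods name GRCm39, and the gene coordinates in the table overlap those of GRCm38 for 99.9% of 36526 genes compared and those of GRCm39 for 12.4%, so GRCm38 was used. FPKM divided by the step of 1 fragment gave whole numbers (tolerance 0.05) for 100.0% of the values checked in each library, high values left out, which recovers the fragments per gene.

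From these values, log2(FPKM + 1) was fitted for the 3 groups together in limma 3.58.1 (R 4.3.3) without a block, over genes with at least 1 FPKM in at least 3 of the 6 Ep1 and Ep2 libraries, and the Ep2 minus Ep1 contrast was tested with empirical Bayes moderation and Benjamini-Hochberg adjustment over all 11472 genes. The fit was tested on simulated data. Alternatives were equal library medians, other filters, a pseudocount of 0.1, the 6 libraries alone, a replicate block, voom on recovered fragments with at least 10 fragments, correction for gene length and GC content, other fold change thresholds and each library left out. The members and lists were chosen with earlier results of these data known.

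Genes were named by rule. The rule took the 12 largest rises and 12 largest falls among protein-coding DEGs without overlap between groups and in the upper 75% of expression, up to 4 members of each list with the smallest adjusted p in each direction, the genes measured by qPCR, the 3 genes with the highest FPKM, the cell type markers and the 4 most changed genes of other classes. Further list members were named after their values were seen, namely Mcm5, Pola1, Cdc6, Chaf1b, Uhrf1, Rpa3, Tk1, Tyms, Dctpp1, Plk1, Cdc20, Aurkb, Cenpm, Kif2c, Bub1b, Pttg1, Ccne1, Ccnd1, Ccnd2, Ccnd3, Cdkn1a, E2f8, Fancd2, Ncl, Rrp9, P4ha2, P4ha1, Ndrg1, Vegfa, Egln3, Pgk1, Gapdh, Ctsd, Hspa5, Creld2, Fos, Mfsd2a, Mmp10 and Thbd. Some genes that the rule would name are not reported here.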

Additional observations from a re-analysis of the deposited data

Results flagged for a closer look

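For 13 DEGs, Ep1 and Ep2 moved to opposite sides of Ctrl, each past the adjusted p-value, in 2 comparisons that share the Ctrl libraries, and the difference between the doses itself was tested by the Ep2 against Ep1 comparison. Most of these steps from Ctrl were small. Genes above Ctrl in Ep1 and below it in Ep2 included Pclaf, with a log2 fold change of -1.27 between the doses (0.23 for Ep1 and -1.04 for Ep2 against Ctrl). The histone chaperone Nasp was at -0.77 (0.21 and -0.56), Lyar, a nucleolar protein, at -0.76 (0.18 and -0.58), and the condensin subunit Smc2 at -0.71 (0.23 and -0.48). Ect2, which drives cytokinesis, was at -0.64 (0.18 and -0.46), and the helicase subunit Mcm4 at -0.63 (0.18 and -0.45).

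Genes below Ctrl in Ep1 and above it in Ep2 were led by Cdc42ep2 at 1.13 (-0.61 and 0.52). The secreted protease Htra3 was at 0.92 (-0.33 and 0.59), and Bmf, a BH3-only protein that binds BCL2 relatives, at 0.80 (-0.37 and 0.43). Padi1, a peptidylarginine deiminase, was at 0.77 (-0.46 and 0.31), the small GTPase Rab7b at 0.73 (-0.45 and 0.27), Malat1 at 0.66 (-0.40 and 0.26), and the glycosyltransferase Mgat3 at 0.64 (-0.45 and 0.19).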

How the results depend on the processing

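The 685 DEGs (224 higher, 461 lower) changed most with the threshold and the scale. There were 135 higher DEGs with a minimum of 5 FPKM, 1074 DEGs (414 higher) with a pseudocount of 0.1 and 1536 (864 higher) with voom on recovered fragments. Without a minimum fold change there were 5156 (2209 higher, 2947 lower), and with an absolute log2 fold change over 1 there were 91 (19 higher, 72 lower). Leaving out each library in turn gave 627 to 791 DEGs, 191 to 268 higher and 420 to 523 lower, and 4154 to 5229 genes past the adjusted p-value. The cause of these shifts was not tested. Of 124 named DEGs, 106 were tested in all 18 alternative fits and the others in fewer. In every alternative fit that tested them, 90 kept their call and 116 an adjusted p-value under 0.05, and none changed sign. Many of these genes were named for a large change or a small adjusted p-value in these same data. Other filters, the 6 libraries alone, the replicate block or a Ctrl library left out cannot move a gene's fold change. In those fits only the adjusted p-value could change a call, so the tally overstates robustness.

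Across all tested genes the replicate numbers showed no clear pairing, which does not exclude pairing for some gene groups. Relative to Ctrl on the log2 scale, replicate 1 had the highest median HIF target in Ep1 (0.21) and in Ep2 (0.80). The same held for endoplasmic reticulum chaperones (0.15 and 0.66). In the replication list replicate 1 was lowest in Ep1 (-0.05) and highest in Ep2 (-0.72). Deviations from group means correlated at -0.049, 0.092 and -0.061 across genes between Ep1 and Ep2 libraries of the same number, and Ep1 replicate 1 correlated best with Ep2 replicate 3 (0.154). With the replicate block there were 689 DEGs, 229 higher and 460 lower, and 4997 genes past the adjusted p-value.

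Depth limits the small RNA genes, with 5 or fewer fragments in some Ep1 libraries and 2 or fewer in Ep2, where fragment counts carry counting error that the fit on FPKM does not model.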

Other observations

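Of 37 genes of amino acid supply and the ATF4 response, 8 were higher and 11 lower by the adjusted p-value, shares near those over all tested genes (19.3% and 25.7%). The stress factor Atf5 was higher, at 39.6, 32.8 and 36.4 FPKM in Ep1 and 60.6, 61.7 and 58.8 in Ep2 (log2 fold change 0.72, SE 0.0691, adjusted p = 5e-05). Shmt2, the mitochondrial enzyme that feeds one-carbon units into nucleotide synthesis, was lower, at 83.6, 91.4 and 89.6 FPKM in Ep1 and 56.6, 53.8 and 51.5 in Ep2 (log2 fold change -0.70, SE 0.0552, adjusted p = 1.85e-05), and the glutamine carrier Slc1a5 was at 53.7, 56 and 54.7 FPKM in Ep1 and 30.9, 36 and 37.2 in Ep2 (log2 fold change -0.65, SE 0.0727, adjusted p = 0.000121). None of these 3 genes overlapped between the doses. Slc1a5 fell short of the fold change threshold with equal medians, with the length and GC correction, and without Ep2 replicate 1.

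Of 28 genes of cell death and survival, 6 were higher and 6 lower by the adjusted p-value, also near the shares over all tested genes, with Bmf as the single DEG at 4.94, 5.98 and 5.34 FPKM in Ep1 and 11.4, 10.5 and 8.69 in Ep2 (log2 fold change 0.80, SE 0.0934, adjusted p = 0.000151). Bad, another BH3-only gene, went the other way at -0.51 (adjusted p = 0.000314). Of 23 interferon-stimulated genes, 8 were higher and 6 lower, beside 19.3% higher and 25.7% lower over all tested genes. There was 1 higher and 1 lower DEG, with a highest log2 fold change of 0.81, and without Ep2 replicate 1 there were 0 higher DEGs. Stat2 was at 0.58 (adjusted p = 0.00144), short of the fold change threshold. The lower DEG was the peptide transporter Tap1 at -0.61 (adjusted p = 0.000114). It fell short of the threshold with equal medians, with the length and GC correction, and without Ep1 replicate 3 or Ep2 replicate 3. Of 29 TGF-beta, YAP and contractile genes, 10 were higher and 4 lower, beside the same shares over all tested genes. The tropomyosin Tpm4 was a DEG beside Cnn2, at 213, 194 and 202 FPKM in Ep1 and 276, 328 and 335 in Ep2 (log2 fold change 0.62, SE 0.0731, adjusted p = 0.00016), and vinculin Vcl was at 0.60 (adjusted p = 1.25e-05). Tpm4 fell short of the fold change threshold without Ep1 replicate 2, Ep2 replicate 2 or Ep2 replicate 3. Of 23 genes of ERK feedback and EGF ligands, 8 were higher and 3 lower, beside 19.3% and 25.7% over all tested genes. None was a DEG, with the ligand Ereg at 0.51 and the factor Etv4 at -0.38.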
